A study of Mus musculus with 6 samples.

Results

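Peg3 and 9 other imprinted growth genes (H19, Igf2, Mest, Plagl1, Dlk1, Grb10, Meg3, Peg10 and Impact) were examined in tumours that overexpress a microRNA, miR-155, with and without doxycycline, the drug meant to turn it off. The set was chosen by gene name and by the fold and adjusted p of Peg3, the lead gene, in this same comparison, so the members' folds and p-values are given as a description. Of the 29209 entries of the authors' deposited table, 10 are members, 9 under their own symbol and Meg3 under its older name Gtl2.

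RNA was sequenced from 6 subcutaneous tumours of NCr nude mice, a strain without a thymus. The tumours grew from injected spleen cells of sick donors carrying mir-155LSLtTA, a miR-155 transgene that doxycycline (DOX) is meant to repress. Mice of the DOX group (3 samples) ate chow with 2.3 mg/kg DOX during the last 16 hours, and those of the no DOX group (3 samples) got no DOX. Both groups carry the transgene in the same host strain. No sample without the transgene received DOX, so a direct action of the drug and the withdrawal of miR-155 cannot be told apart, and miR-155 itself was not measured here. Whether samples come from separate mice or donors is not given in the labels, and the p-values then reflect only how these samples vary, possibly for technical reasons. Tumours were dispersed to single cells and red blood cells were lysed, so host stromal and immune cells could remain beside the injected lymphoid cells.

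An imprinted gene is transcribed mainly from the copy inherited from 1 parent. Many imprinted genes act on fetal growth: Igf2 encodes a growth factor, Grb10 an adaptor that dampens insulin and IGF receptor signalling, Dlk1 a transmembrane protein related to Notch ligands, and H19 and Meg3 long noncoding RNAs. Most of these genes are high in the embryo and placenta and are turned down after birth, while Peg3, also called Pw1, stays on in progenitor cells of several adult tissues.

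The table analysed here holds 1 fold, 1 p-value and 1 adjusted p-value per entry and no value per sample, so levels, replicate spread and depth are unknown. The table does not say which group is the numerator of the fold. All folds are read here as DOX over no DOX, and if the ratio runs the other way, every "rose" and "fell" swaps. Entries with an adjusted p under 0.05 in that table are called here. Beside a log2 fold stands its implied error, the absolute log2 fold divided by the normal quantile of the unadjusted p, a rough stand-in for a standard error that the table lacks.

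The sequences that bear on the comparison are those of the withdrawn microRNA and of its possible sites in the members. The mature mouse miR-155-5p (RefSeq, GRCm38.p6, chromosome 16) is shown with its seed, bases 2 to 8, in capitals. Matches of 7 bases, in capitals, were searched for on the transcript strand in the longest annotated 3' UTR of GENCODE M21. AGCATTA is the reverse complement of the seed, bases 2 to 8, and GCATTAA is that of bases 1 to 7. They share 6 letters and overlap where both are present.

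mmu-miR-155-5p: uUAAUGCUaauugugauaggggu
Peg3 site: gcttatagtcaAGCATTAttttctta
Igf2 site: cacacccacagGCATTAAcacacaca
Mest site 1: tgtagaaaaacAGCATTAgatattct
Mest site 2: aaaactgccagGCATTAAgaactgca
Mest site 3: ttagttaaagcAGCATTAttgattat
Peg10 site: atagatgttagGCATTAAggataagt

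Thus 4 of the 10 members hold a match of either kind, in Peg3 and Mest to the whole seed, while 13.6% of 14073 tested protein-coding genes with an annotated 3' UTR do (1907 genes). Of these 4, Peg3 was called and the other 3 were not. Mest, with 3 matches in 1296 bases of 3' UTR, had -0.22 as its log2 fold (implied error 1.41) in the authors' deposited table. The other 6 members, the noncoding H19 and Meg3 searched over their whole transcripts, held no match. The 4 of 10 and the 13.6% were not matched for length, and a longer 3' UTR has more room for a match. The 8 coding members had 3' UTRs of 1296 bases (Mest) to 5166 bases (Peg10), and H19 and Meg3 are outside the coding background. Whether the members hold more matches than other genes of their length was not tested. A match is a description of the letters and not evidence of a site in use.

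Peg3, which encodes a large zinc finger protein expressed from the paternal copy, rose 44.7-fold. Its log2 fold of 5.48 had an implied error of 1.56 and an adjusted p of 0.00782 in the authors' deposited table. Among 15784 tested entries with a finite fold, 15 had a log2 fold at least as large, and 7 of these were called, Peg3 included. By p-value Peg3 stood lower, at rank 1044 of 18543 tested entries in the authors' deposited table. The 22 called entries with a log2 fold of at least 5 had a median implied error of 1.57, against 0.458 over all called entries with a finite fold. At an equal p the implied error grows with the fold by construction, so this difference is no result about the data. In bulk tumour RNA, more cells that express Peg3 and more Peg3 RNA per cell cannot be told apart.

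No other member was called. Thus 1 of 10 members was higher and 0 were lower, against 11.3% of all tested entries called, 5.72% higher and 5.61% lower, so the members' share is near the background and is no result about them as a set. At an unadjusted p under 0.05 the count was also 1, and at under 0.1 it was 3, with Meg3 and Impact added. Over the 8 members with a finite fold the median log2 fold was 1.56, beside 0.17 over all tested entries with one. That median includes Peg3, which was chosen by its fold, and Plagl1, whose implied error of 6.05 exceeds its log2 fold of 2.01. It is no result about the members as a set.

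**Figure D1:**
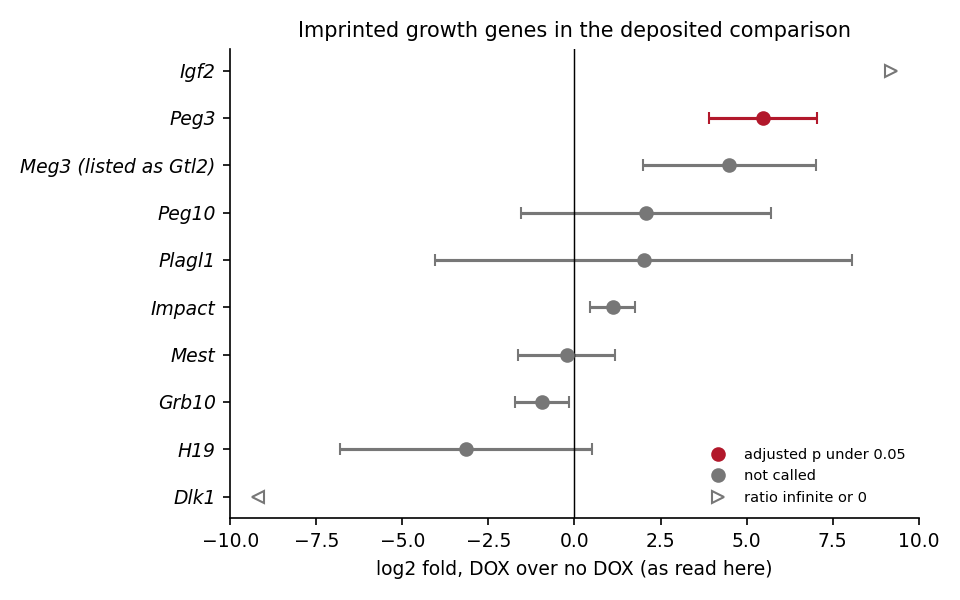
Log2 fold (x axis, DOX over no DOX as read here) of the 10 members (rows), with the implied error as bars. Peg3 at 5.48 is the 1 called member (red), Meg3 at 4.50 has a bar of 2.52, and the arrows at the edges mark Igf2, listed with an infinite ratio, and Dlk1, listed with a ratio of 0.

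Of the growth factor and ligand genes, neither gave a usable fold. Igf2, the paternally expressed fetal growth factor, is listed with an infinite ratio and an unadjusted p of 0.858 in the authors' deposited table. Dlk1, which acts on Notch signalling and on fat and muscle progenitors, is listed with a ratio of 0 and an unadjusted p of 1.00 in the authors' deposited table. Entries with equal counts in every sample get an equal ratio and p, and Igf2 shares both with 87 other entries and Dlk1 with 344. Such sharing holds for 18.9% of all tested entries and for 2 of the 2101 called ones. An infinite ratio and a ratio of 0 each mean that 1 group is at 0, and neither gene was called.

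Neither of the 2 long noncoding RNAs, both expressed from the maternal copy, was called. Meg3, of the cluster that also holds Dlk1, was 22.6-fold higher in the table, a log2 fold of 4.50 with an implied error of 2.52 and an adjusted p of 0.290 in the authors' deposited table. H19, which lies beside Igf2 and hosts a microRNA, had a log2 fold of -3.16 with an implied error of 3.66 and an adjusted p of 0.766 in the authors' deposited table. For H19 the implied error exceeds the fold itself, so no direction can be read.

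The signalling genes had the tightest values. Grb10, expressed from the maternal copy in most tissues, had a ratio of 0.516, a log2 fold of -0.95 with an implied error of 0.787 and an adjusted p of 0.570 in the authors' deposited table. Impact, whose protein competes for the activator of the amino acid sensor kinase Gcn2, had a log2 fold of 1.11 with an implied error of 0.653 and an adjusted p of 0.322 in the authors' deposited table. Mest, which encodes an enzyme of the hydrolase fold family, had a ratio of 0.857 in the authors' deposited table, the member nearest to no change. For these 3 a difference could not be detected, which does not show that none exists.

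Plagl1 and Peg10 were not resolved. Plagl1, a zinc finger transcription factor known to act on other imprinted genes, had a log2 fold of 2.01 with an implied error of 6.05 in the authors' deposited table, and shares its ratio and p with 4 other entries. A second Plagl1 entry, under the older name Zac1, has no p-value. Peg10, a domesticated retrotransposon gene needed in the placenta, had a log2 fold of 2.08 with an implied error of 3.62 and an adjusted p of 0.919 in the authors' deposited table. Both errors exceed their folds.

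**Figure D2:**
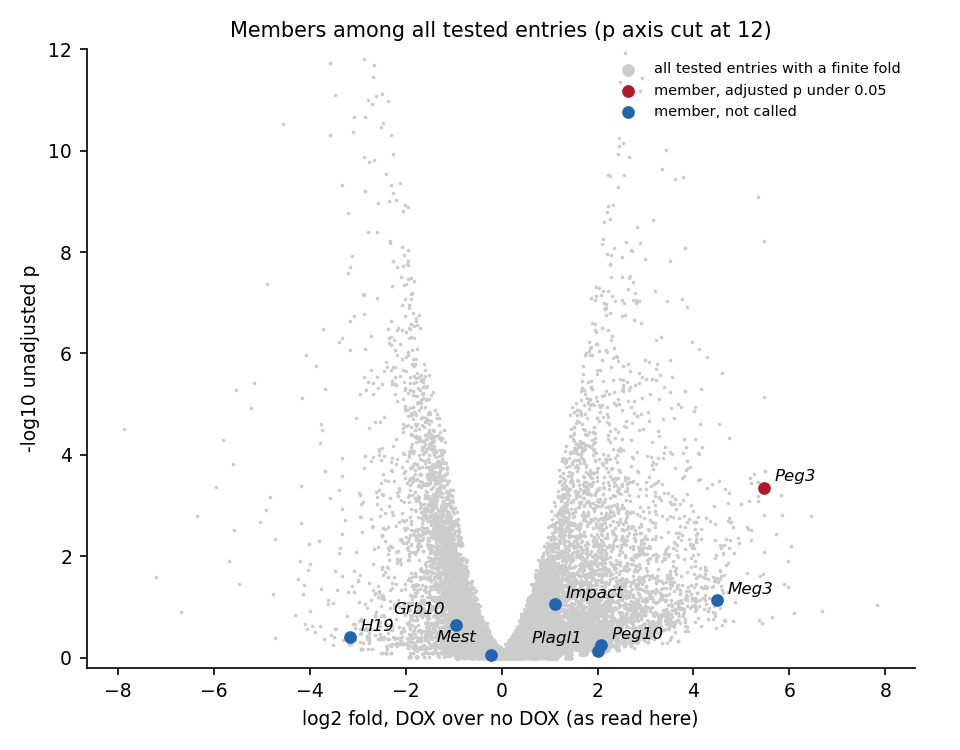
Log2 fold (x axis, DOX over no DOX as read here) and -log10 unadjusted p (y axis, cut at 12) of the tested entries with a finite fold (grey) and of the 8 members that have one (coloured). Peg3 lies at the right edge of the cloud at a p of 0.00044, while Meg3, nearly as far right, has a p of 0.0740.

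The genes with a fold most like that of Peg3 were found by the absolute difference of log2 fold in this 1 comparison of 3 and 3 samples, among called entries with a gene name. They were Kcnrg, at 5.50 in the authors' deposited table (difference 0.014), the interferon-induced GTPase gene Mx1 at 5.47 (0.018), the V(D)J recombinase gene Rag1 at 5.46 (0.022), the zinc finger gene Zfp521 at 5.55 (0.067) and the R-spondin receptor gene Lgr5 at 5.35 (0.13). Their implied errors ran from 0.872 for Lgr5 to 1.57 for Zfp521. They were picked for their closeness to Peg3, so that closeness is no result.

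The genomic surroundings of Peg3 bear on the reading of its rise, because Peg3 starts back to back with Usp29, a deubiquitinase gene that is also paternally expressed. In the RefSeq windows the starts of both genes lie 164 bases apart on opposite strands. The promoter of Peg3 (chr7:6730370-6730669, GRCm38.p6, minus strand, 250 bases before to 50 after the start) is shown with 1 TGACGTCA and 2 CCAAT boxes, here as ATTGG on the opposite strand, in capitals.

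Peg3 promoter: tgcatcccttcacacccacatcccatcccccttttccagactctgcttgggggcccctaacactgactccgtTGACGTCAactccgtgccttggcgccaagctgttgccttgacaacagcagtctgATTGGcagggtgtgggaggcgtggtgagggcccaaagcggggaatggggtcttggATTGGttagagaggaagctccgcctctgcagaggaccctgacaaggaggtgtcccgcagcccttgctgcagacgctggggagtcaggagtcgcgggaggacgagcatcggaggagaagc

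TGACGTCA, a palindrome and the full cyclic AMP response element, is in 1.79% of 32851 promoter windows of this length, and CCAAT on either strand in 37.4%. These motifs were chosen after the sequence was seen. The window holds 13 CpG, an observed over expected ratio of 0.46, and 44.3% of all windows have a higher one. Usp29 has an entry in the table but no p-value. Zim1, the maternally expressed neighbour on the other side, is listed with an infinite ratio and an unadjusted p of 0.977 in the authors' deposited table. Zfp418, also within 1 Mb, had a log2 fold of 0.05 (implied error 0.308) in the authors' deposited table. Neither of the 2 tested neighbours was called. Peg3 also has an antisense RNA, Peg3os, whose reads could be counted with it where strand was not used.

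The same was done for the other clusters, over a chosen list of neighbours, not every gene, within 1 Mb in GRCm38.p6. The counts below stand beside 5.72% of all tested entries called higher and 5.61% called lower. Around Igf2 and H19, 1 of 14 tested neighbours fell and 0 rose: Mrpl23, a mitochondrial ribosomal protein gene, at a log2 fold of -1.71 (adjusted p = 0.00723) in the authors' deposited table. Counting Mrpl23, 5 of the 14 had an unadjusted p under 0.05, all with a fold below 1: Mrpl23 and, not called, Tnni2 at -2.68 (0.0952), Cd81 at -1.93 (0.0753), Tspan32 at -1.05 (0.147) and Nap1l4 at -0.75 (0.206) in the authors' deposited table. Of the 13 finite folds there 10 were below 1, and the median log2 fold was -0.75. Around Mest 1 of 6 rose, Mkln1 at 1.35 (0.00814) in the authors' deposited table. Of 5 tested around Plagl1, Utrn, the gene of utrophin, rose by 1.89 (2.51e-05) and the splicing factor gene Sf3b5 fell by 1.60 (0.0200) on the log2 scale in the authors' deposited table. Ltv1, at -1.24 (0.104), had an unadjusted p of 0.0159 in the authors' deposited table and was not called. None of these 4 called neighbours is among the genes listed here as imprinted. None of 12 tested neighbours of Peg10, 5 of Dlk1 and Meg3 and 5 of Grb10 was called by the authors' test, and in each of these 3 groups 1 gene had an unadjusted p under 0.05. These were Ppp1r9a, the tryptophan tRNA ligase gene Wars (adjusted p = 0.0690) and Fignl1 (0.0823) in the authors' deposited table. Around Peg10, all 6 neighbours with a finite fold had one above 1, with Ppp1r9a at a log2 fold of 4.57 (adjusted p = 0.139), Pon2 at 0.74 (0.255) and Casd1 at 0.54 (0.417) in the authors' deposited table. Rtl1, which lies in the Meg3 cluster, had a log2 fold of -0.81 (adjusted p = 1.00) in the authors' deposited table. The sources used here do not say whether counting used strand, so reads of overlapping or antisense genes, such as Rtl1 and its antisense RNA, Mest and Copg2, or Igf2r and Airn, cannot be told apart.

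Outside the 10 members, 54 of 75 further genes reported as imprinted in the mouse, some in a few tissues only, were tested. Of these 1 rose and 3 fell, 7.41% against 11.3% of all tested entries, and their median log2 fold over 40 finite folds was 0.17, the same as over all tested entries. Ube3a, a ubiquitin ligase gene silenced on the paternal copy in neurons, rose, at a log2 fold of 1.19 with an implied error of 0.401 (adjusted p = 0.0313) in the authors' deposited table. Those that fell were Dhcr7, an enzyme of cholesterol synthesis, at a log2 fold of -2.30 (4.15e-05), Gnas, the gene of the stimulatory G protein alpha subunit, at -1.05 (0.0248), and Atp10a, a phospholipid flippase gene, at -1.04 (0.0405) in the authors' deposited table. These 4 are on the list of maternally expressed genes, of which 38 were tested (median log2 fold -0.14).

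Of 16 tested paternally expressed genes 0 were called by the authors' test, and 1 had an unadjusted p under 0.05, Airn, listed as 2810051F02Rik, at a log2 fold of 2.61 (adjusted p = 0.118) in the authors' deposited table. Next were Mcts2 at 1.06 (0.442) and Zrsr1 at 0.76 (0.450) in the authors' deposited table, both retrocopies whose reads could be shared with their parent genes. Their median log2 fold was 0.60 over 10 finite folds. A further 6 are listed with an infinite ratio, among them Ndn, Peg12 and Sgce, and 0 with a ratio of 0. Of the 54 genes on both lists, 37.0% share ratio and p with another entry, against 18.9% of all tested entries, and all 14 with an infinite ratio do. None of the genes on both lists that share ratio and p was called, so a change was not detected for them.

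**Figure D3:**
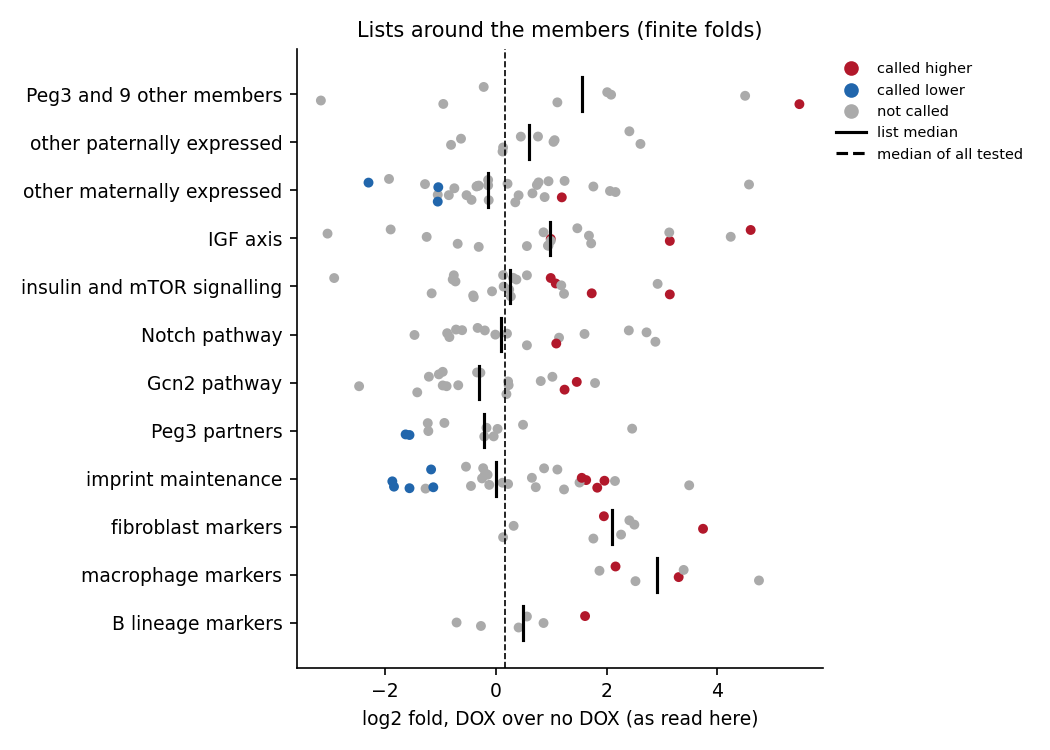
Log2 fold (x axis, DOX over no DOX as read here) of each gene with a finite fold in the members and in lists around them (rows). Red and blue points were called higher and lower, grey points were not called, short bars mark list medians (1.56 for the 8 members with a finite fold, Peg3 included, -0.14 for other maternally expressed genes, 2.91 for macrophage markers) and the dashed line the median of all tested entries, 0.17. The members' median is no result, since Peg3 was chosen by its fold.

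The ligand Igf2 was not measurable, but other genes of its signalling axis were. Of 19 tested genes of the IGF axis 4 rose and 0 fell, 21.1% against a background of 5.72% higher, and their median log2 fold was 0.97 over 18 finite folds. This list and the pathway lists that follow were chosen with earlier results of these data known. Their shares are therefore a description, and an excess over the background is no result about a pathway. Igf1, the postnatal IGF ligand, which macrophages also make, had a log2 fold of 4.60 with an implied error of 0.976 (adjusted p = 0.000155) in the authors' deposited table. Igf1r, the receptor for both IGF ligands, had a log2 fold of 3.14 with an implied error of 0.830 (0.00367) in the authors' deposited table. The insulin receptor gene Insr had 0.99 with an implied error of 0.345 (0.0402) in the authors' deposited table. Irs1, the adaptor that couples both receptors to PI3 kinase, is listed with an infinite ratio (adjusted p = 0.0306) in the authors' deposited table. Igf2r, the imprinted receptor that clears IGF2, stood at -0.31 (0.944) in the authors' deposited table, and a change was not detectable. Of the RNA-binding genes named for the Igf2 transcript, Igf2bp2 had -3.04 (0.0661) and Igf2bp3 1.72 (0.508) in the authors' deposited table. The IGF binding protein genes, which sequester the ligands, ranged from -1.90 for Igfbp2 to 1.68 for Igfbp6 in the authors' deposited table, with 0 called by the authors' test and 1, Igfbp4 at -1.25 (0.0897), with an unadjusted p under 0.05.

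**Figure D4:**
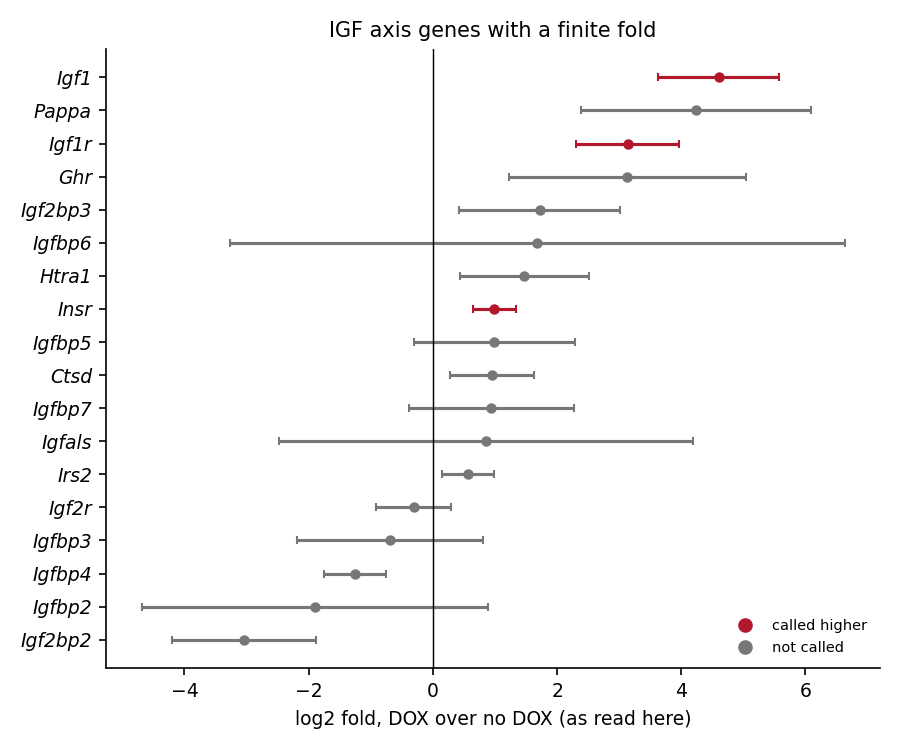
Log2 fold (x axis, DOX over no DOX as read here) with implied error (bars) of the 18 IGF axis genes with a finite fold (rows). Igf1 at 4.60, Igf1r at 3.14 and Insr at 0.99 were called higher (red), and Irs1 is not drawn because its ratio is infinite.

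Downstream of the receptors that Grb10 binds, 5 of 23 tested insulin and mTOR signalling genes rose and 0 fell, 3 of them the receptor and adaptor genes just named. This is 21.7% called, against 11.3% of all tested entries, in a list that shares those 3 genes with the IGF axis and is no separate result. At an unadjusted p under 0.05, 6 had a fold above 1 and 4 a fold below 1. The latter, not called, were Akt1 at -0.78, Grb2 at -0.76, Nedd4 at -0.73 and Eif4ebp1 at -1.16 in the authors' deposited table. The mTORC2 subunit gene Rictor, listed as 4921505C17Rik, had a log2 fold of 1.73 (adjusted p = 0.000278), and the PI3 kinase catalytic gene Pik3ca 1.08 (0.0497) in the authors' deposited table. Pik3ca, Akt1, Grb2, Nedd4 and Eif4ebp1 were named after their values were seen. The median of this list was 0.26 over 22 finite folds.

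Among genes that bear on Dlk1, 1 of 17 tested Notch pathway genes rose and 0 fell, with a median of 0.09. This is 5.88% called, against 11.3% of all tested entries. The called gene was the coactivator Maml1 at 1.09 (adjusted p = 0.0407) in the authors' deposited table, where a second Maml1 entry, mKIAA0200, has a log2 fold of -1.17 and was not called. Around Impact, 2 of 18 tested Gcn2 pathway genes rose and 0 fell, the eIF2 kinase genes Eif2ak2 at 1.46 (0.0185) and Eif2ak3 at 1.24 (0.0271) in the authors' deposited table, while Eif2ak4, which encodes Gcn2, had 1.02 (0.0638) and was not called. The share called, 11.1%, is near the 11.3% of all tested entries. At an unadjusted p under 0.05, 3 genes of this list had a fold above 1 and 4 a fold below 1. The median of this list was -0.31. Another list held 11 genes whose proteins are reported to work with Peg3, among them genes of p53, Siah and TNF signalling. Of these 2 fell and 0 rose, 18.2% called against 11.3% of all tested entries. They were Trp53, the p53 gene, at -1.63 (0.00256) and the corepressor gene Trim28 at -1.56 (0.00402) in the authors' deposited table. A second Trp53 entry there, p53, has -0.64 (1.00). Siah1a, the ubiquitin ligase gene first tied to Peg3 in apoptosis, had 0.49 (0.666) in the authors' deposited table. Of 6 tested genes that, like Peg10, derive from retrotransposon Gag 0 were called by the authors' test, and 0 had an unadjusted p under 0.05. Pnma1 at 1.77 (0.723) and Arc at -0.32 (0.924) had the smallest adjusted p of these in the authors' deposited table.

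Calls went in both directions among genes that act on methylation marks or on imprinting control regions. Of 30 tested 4 rose, 5 fell and the others were not called, 30.0% against 11.3% of all tested entries, with a median of 0.00. This list too was chosen with earlier results of these data known, so its share is a description. Zfp445, a zinc finger gene that binds imprinting control regions, rose by 1.63 (adjusted p = 0.00164), the paralogues Arid4a by 1.83 (0.00038) and Arid4b by 1.96 (3.13e-05), and the methylcytosine dioxygenase gene Tet2, listed as E130014J05Rik, by 1.55 (0.00219) on the log2 scale in the authors' deposited table. Those that fell were the maintenance methyltransferase gene Dnmt1, at a log2 fold of -1.87 (0.000116), its recruiter Uhrf1 at -1.84 (0.00367), Trim28, the histone-binding subunit gene Rbbp4 at -1.13 (0.0190) and Mbd3, of a deacetylase complex, at -1.17 (0.0380) in the authors' deposited table. Tet2, Uhrf1, Rbbp4 and Mbd3 were named after their values were seen. No methylation was measured, so these are transcript differences.

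Peg3 and Plagl1 encode zinc finger proteins of the Cys2-His2 type, and a search of their translated coding sequences for that spacing found 11 fingers in Peg3 and 6 in Plagl1. Among 199 tested genes with 10 or more such fingers, Peg3 included, 32 rose and 1 fell, 16.1% and 0.503% beside 5.72% and 5.61% of all tested entries, and their median log2 fold was 0.97. In the decile of tested genes with the longest transcripts, 15.6% rose and 2.95% fell, with a median log2 fold of 0.74. The part of transcript length in the counts of finger genes was not tested. The 5 called genes with the most fingers all rose: Zfp521 (27 fingers), Zfp62 (25) at a log2 fold of 1.81, Zfp748 (23) at 1.73, Zfhx4 (19) at 3.79 and Zfp160 (18) at 2.62 in the authors' deposited table.

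Direction went with transcript length across the table, and Peg3 has a long transcript. The longest GENCODE M21 transcript of Peg3 has 8694 bases, in decile 10, the longest, of tested genes, where 15.6% rose and 2.95% fell. In decile 1, the shortest, 0.843% rose and 14.5% fell. Meg3 (14548 bases) and Peg10 (6667 bases) are in decile 10 too, and H19 (2286 bases) is the shortest member. The part of length in the Peg3 value was not tested.

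**Figure D5:**
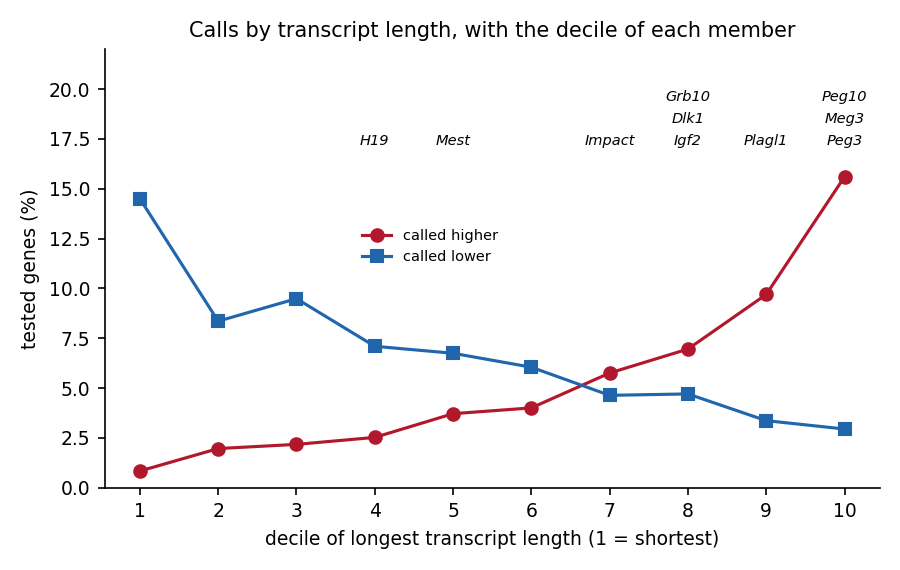
Share of tested genes called higher (red circles) or lower (blue squares) on the y axis, in percent, by decile of the longest transcript (x axis, decile 10 the longest), with each member written above its decile. The share called higher is 0.843% in decile 1 and 15.6% in decile 10, which holds Peg3, Meg3 and Peg10.

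Some markers of host cells were called too, but most were not. Over all tested entries, 11.3% were called, 5.72% higher and 5.61% lower. An unadjusted p under 0.05 was found for 4147 of 18543. All 6 tested macrophage markers had a fold above 1 and 2 rose, Csf1r at 2.16 and Mertk at 3.30 in the authors' deposited table. Their median was 2.91, and 5 of the 6 had an unadjusted p under 0.05. Of these, Cd14 at 4.75 (adjusted p = 0.0568), Mrc1 at 3.39 (0.0780) and Cd68 at 1.87 (0.184) were not called in the authors' deposited table. All 8 fibroblast markers had a fold above 1 and 2 rose, Postn at 3.74 and Pdgfra at 1.95 in the authors' deposited table, with a median of 2.10. Of the 8, 4 had an unadjusted p under 0.05. Of 6 B lineage markers 1 rose, Ebf1 at 1.61 in the authors' deposited table, with a median of 0.49 and 4 folds above 1. Vpreb1, at -0.71, had an unadjusted p of 0.0119 and was not called in the authors' deposited table. Of 5 endothelial markers 4 had a fold above 1 and the median was 0.89, while the 1 called, Eng, fell, with -1.04 (adjusted p = 0.0361) in the authors' deposited table. Pecam1, at 0.89, had an unadjusted p of 0.0195 and was not called in the authors' deposited table. Of 4 adipocyte markers, Adipoq and Plin1 are listed without a p-value. The 2 tested had a fold above 1: Lpl rose, at 2.60, and Fabp4 at 3.24 (adjusted p = 0.306) was not called in the authors' deposited table. Of 5 skeletal muscle, 4 T cell and 6 fetal or placental markers 0 were called by the authors' test, and 0, 1 and 0 of them had an unadjusted p under 0.05. Among the fetal and placental markers 5 more, Lin28a and Tpbpa among them, are listed without a p-value. No defining marker of macrophages or fibroblasts was at 0 in either group, since every fold is finite. The part of macrophage or fibroblast RNA in the Peg3 and Igf1 values was not tested, and without values per sample the level of each list in each group is unknown.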

How the data were processed

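Ribosomal RNA-depleted libraries of total RNA were sequenced from 3 DOX and 3 no DOX tumour samples, per the labels' protocols. RSEM, DESeq and the mouse build mm9 are named in the submitters' processing notes, with no version given. The deposited table holds a linear fold (ratio) and unadjusted and adjusted p-values from the authors, per the file headers. It has no counts, so no new test across samples and no filter on low values could be made, and the depth per sample is unknown. Benjamini-Hochberg adjustment of the 18543 deposited p-values gives the authors' adjusted values to within 2.09e-06, and 10666 entries have no p. Log2 folds were taken from the ratio, and 2180 infinite and 579 zero ratios were left out of medians.

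Entries were matched to RefSeq genes (GRCm38.p6) by symbol (11736), accession (1405) or unique synonym (2022), and 3380 had no match. For a member or list gene entered more than once, the entry under its own symbol was used. Without one, an entry matched by accession, or else by synonym, was used, with the smallest p among several. The shares by transcript length used the entry with the smallest p of each gene, which favours calls. Finger counts used the first entry of each gene. GENCODE M21 (GRCm38, not mm9) gave transcripts. Implied errors were computed for p up to 0.9. A finger was 2 cysteines with 2 residues between them, 12 residues, and 2 histidines with 3 to 5 between them. Python 3.11.15, pandas 2.3.3, SciPy 1.17.1 and Biopython 1.88 were used, and the adjustment was tested on simulated data.

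The members and gene lists were chosen with earlier results of these data known. Named were all members, the called imprinted genes, up to 4 called genes of each other list by adjusted p (up to 3 of the smallest where none was called), the 5 genes nearest to Peg3 in fold and the 5 called genes with the most fingers. Alternatives were adjusted p thresholds of 0.01 and 0.1, Bonferroni adjustment, finite folds only, matched genes only, and 1 entry per gene. Genes named outside this rule (among them Igf2r, Eif2ak4, Siah1a, the IGF and RNA binding protein genes, Rtl1, uncalled neighbours and markers, and the paternally expressed genes outside the members) were chosen after their values were seen.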

Additional observations from a re-analysis of the deposited data

How the results depend on the processing

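The call of Peg3 held at adjusted p thresholds of 0.01 and 0.1, among finite folds, among matched genes and with 1 entry per gene, and ended under Bonferroni, a stricter adjustment by construction, at an adjusted p of 1.00. Under it 0 members were higher. No other member was called under any of these alternatives. At 0.01 the further imprinted genes gave 0 higher and 1 lower, the pathway lists 7 higher, the cell type markers 0 lower and all tested entries 576 higher and 569 lower. At 0.1 the further imprinted genes gave 2 higher and 5 lower, and the markers 2 lower. Under Bonferroni the further imprinted genes gave 0 and 1, the pathway lists 2 and 1, the markers 2 and 0, and all tested entries 137 and 154. These compare with 1 higher and 3 lower, 13 and 6, 6 and 1, and 1060 and 1041 at the authors' adjustment. The median log2 fold of all tested entries was 0.05 among matched genes, and that of the further imprinted genes 0.35 with 1 entry per gene, where each was 0.17 before. Leaving out samples was not run and no paired analysis was possible because the table holds no value per sample. Depth, and so the smallest detectable change, is unknown.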
